A study of Mus musculus with 5 samples.

Results

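Apolipoproteins are the proteins that coat lipoprotein particles and carry cholesterol and other lipids between cells. The genes Apoe, Apoc1, Apoc4, Apod and Apoa1, together with Clu, which encodes clusterin, were followed by name, as 6 of the 31053 genes in the count tables of the series. The rule names them by family and uses no measured value, although they were chosen with earlier results of these data known.

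ApoE binds lipoprotein receptors on cells, and macrophages are a known source of it in many tissues. ApoC1 and ApoC4 are small proteins encoded beside Apoe, ApoA1 is the main protein of high-density lipoprotein, and ApoD is a lipocalin found in plasma and in nerve and connective tissue. Clusterin, also called apolipoprotein J, is a secreted chaperone that is known from tissues in which cells die or are cleared. In the ovary, theca cells outside the follicle make androgen from cholesterol, granulosa cells surround the oocyte, and follicles that do not reach ovulation lose their granulosa cells by atresia.

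The study followed the first follicles of the mouse ovary through their growth and their later remodeling, in which granulosa cells are lost while theca cells remain. Ovaries of untreated C57BL6/J mice aged 2, 3, 4, 5 or 6 wk were dissociated with trypsin, live cells were sorted with the dye SYTOX Orange, and each age gave 1 single-cell library made with the 10x Genomics 3′ chemistry. All 5 groups share the strain and the lack of treatment, and the number of animals behind a library is not given in the sources used here. Because an age has 1 library, no difference between ages was tested, and differences between ages cannot be told apart from differences between libraries.

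The libraries held 7779 to 11077 cells and 93438618 to 144609431 UMIs, each UMI being 1 counted RNA molecule, with medians of 9056 to 12424 UMIs per cell. Among the barcodes of the 48163 cells, 273 were found in more than 1 library. Of the cells of a library, 2.08% to 5.01% were called doublets and kept. Cells were clustered again and clusters were named from marker genes, none of them a member. Names end in "-like" for that reason, and 9990 cells, with a median of 2167 UMIs, stayed unnamed. The named groups included 18079 granulosa-like cells, of which 821 were placed in the primordial group, 2424 in the primary, 4373 in the secondary, 3306 in the antral, 3131 in the remodeling and 2836 in the mitotic group. Outside the follicle they included 1486 theca-like, 1804 early theca, 10420 stromal-like, 3963 Tagln+ smooth muscle-like, 324 surface epithelial-like and 137 macrophage-like cells. Levels are given in CPM, the UMIs of a gene for every 1000000 UMIs counted in the same cells. The macrophage markers C1qa, C1qb, Csf1r, Pf4, Mrc1 and Adgre1 summed to 15919 to 17728 CPM in the macrophage-like cells of each library. In the antral and remodeling granulosa groups they summed to at most 1.47 CPM. Of the antral group, 1 of 3 clusters, with 998 cells, was named from antral markers. The other 2, with 1723 and 585 cells and so most of the group, were placed by their match to the study's published cluster profiles. Remodeling markers were their best list. An unnamed cluster of 820 cells had antral as its best marker list but was left out of the antral group, because markers of another cell type outnumbered antral ones among its top genes. It stayed among the granulosa-like cells as a whole, as did an unnamed cluster of 368 cells. Of those 368 cells 42.7% were called doublets, and stromal markers such as Col1a1, Dcn and Lum were among their top genes. Both clusters are also part of the 9990 unnamed cells.

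Apoe (ENSMUSG00000002985), Apoc1 (ENSMUSG00000040564) and Apoc4 (ENSMUSG00000074336) lie beside each other on the minus strand of chromosome 7 in GRCm38, within 21.1 kb. Apoc4 spans positions 19678083 to 19681479, Apoc1 19689481 to 19692660 and Apoe 19696109 to 19699188, so that 8001 bp separate Apoc4 from Apoc1 and 3448 bp separate Apoc1 from Apoe. Apoa1 (ENSMUSG00000032083) spans 46228580 to 46230466 on the plus strand of chromosome 9, next to Apoc3 and Apoa4. Apod (ENSMUSG00000022548) spans 31296192 to 31314808 on chromosome 16, minus strand, and Clu (ENSMUSG00000022037) spans 65968483 to 65981547 on chromosome 14, plus strand. The predicted gene Gm44805 overlaps Apoc4 on the same strand and had 0 UMIs in all cells, so Apoc4 counts could be lowered by reads that fall in both genes.

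The 250 bases before the start of Apoe and of Apoc4 are shown because these neighbouring genes were highest in different cell types. Both sequences are RefSeq's, on the minus strand of GRCm38.p6, and capitals mark a match to AGGTCA, the half-site bound by many nuclear receptors, or to GGGCGG, the GC box. The Apoe window is chr7:19699189-19699438 and the Apoc4 window is chr7:19681461-19681710.
Apoe: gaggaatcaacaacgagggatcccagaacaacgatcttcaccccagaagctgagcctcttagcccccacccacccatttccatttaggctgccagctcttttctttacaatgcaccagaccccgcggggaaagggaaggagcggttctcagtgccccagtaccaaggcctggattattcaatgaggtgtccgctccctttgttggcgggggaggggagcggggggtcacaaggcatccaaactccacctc
Apoc4: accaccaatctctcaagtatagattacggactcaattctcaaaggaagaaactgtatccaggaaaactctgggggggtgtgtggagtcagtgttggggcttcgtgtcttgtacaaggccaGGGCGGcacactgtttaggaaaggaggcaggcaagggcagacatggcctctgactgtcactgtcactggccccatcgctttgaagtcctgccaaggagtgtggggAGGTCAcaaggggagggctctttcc
The Apoc4 window held AGGTCA 25 bases and GGGCGG 130 bases before the start, and its GC content was 54%. The Apoe window had a GC content of 57.2% and no match to the motifs searched on both strands, which were AGGTCA itself, the extended half-site CAAGGTCA that NR5A receptors prefer, the TATA box TATAAA, the GC box GGGCGG, and the direct repeats of the half-site known as DR1 and DR4. The extended half-site and both repeats contain AGGTCA. Among windows of the same length before 32851 starts, 14.0% held AGGTCA, 1.33% CAAGGTCA, 12.4% TATAAA, 32.7% GGGCGG, 0.0335% DR1 and 0.0152% DR4. RefSeq lists 2 further Apoe starts inside the gene, and the window before one of them held TATAAA at 96 bases on the plus and 100 bases on the minus strand relative to the gene. A match is a description of the sequence, and these data do not show what binds there.

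The members split by cell type. In all cells together, 70.5% held a UMI of Apoe, 63.3% of Clu, 29.7% of Apoa1, 3.31% of Apoc4, 3.09% of Apoc1 and 0.660% of Apod. Each level was computed from UMIs added up over the cells that a library holds of a group, and levels are compared between groups within a gene, not between genes. Each member had its highest mean level in a different group, among groups with at least 50 cells in a library (10 for macrophages). Apoe was highest in macrophage-like cells, Clu in the remodeling granulosa group, Apoa1 in the antral granulosa group, Apoc4 in the primary granulosa group, Apoc1 in surface epithelial-like cells and Apod in Col14a1+ stromal cells.

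**Figure D1:**
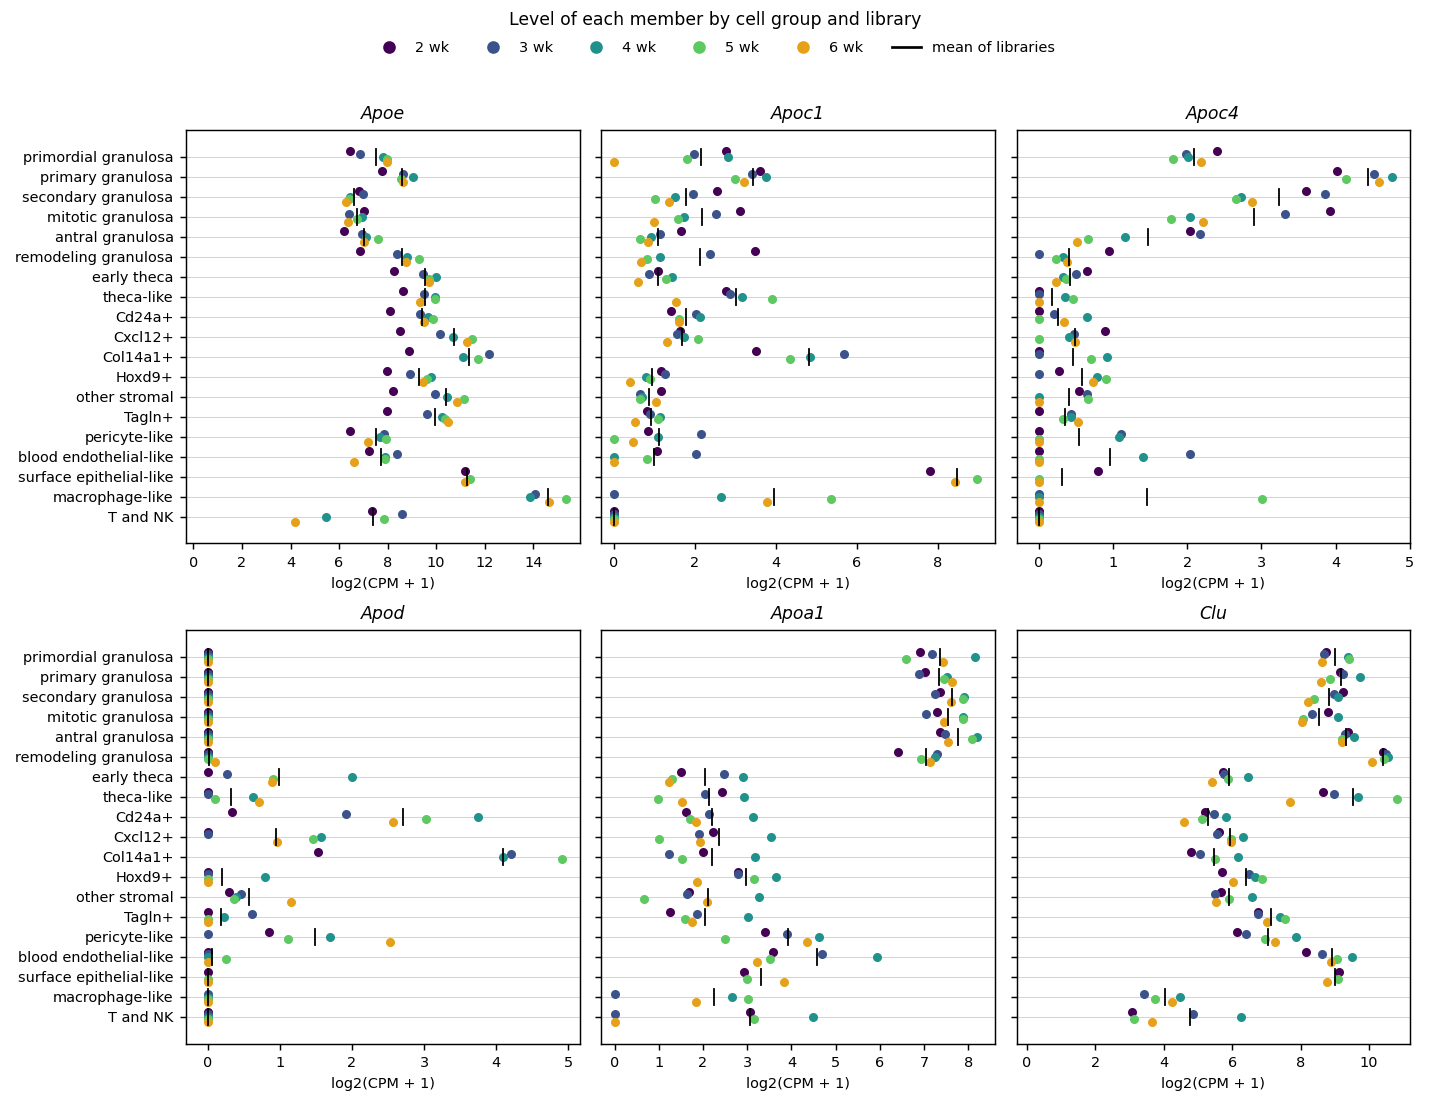
Level of each member as log2(CPM + 1) in 19 groups of cells. Each point is 1 library, coloured by age in wk, and the black bar marks the mean CPM over libraries on the same scale. Apoe points of macrophage-like cells lie above all its other groups, Apoa1 is high across the granulosa groups, and Apod is at or near 0 in the granulosa groups.

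T and NK cells are not known as a main source of these proteins and were taken as the level that free RNA in the droplets can give. Clusters whose best marker list was B or neutrophil, cells planned for the same level, stayed unnamed by the naming rules and were left out. No member was a marker in those rules. The unnamed hematopoietic-like clusters had more Apoe than the T and NK cells, and more than stromal-like or theca-like cells. A level that included them would be higher. The level used rests on the named T and NK cells alone and may be too low. In 18 to 34 such cells per library Apoe was at 162, 380, 43.0, 227 and 17.4 CPM at 2, 3, 4, 5 and 6 wk, Clu 7.35 to 75.2 CPM and Apoa1 0 to 21.5 CPM. No UMI of Apoc1, Apoc4 or Apod was found in them. Groups with Apoe in the range of these cells cannot be called expressing from this level alone.

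Apoe was highest in macrophage-like cells at every age that had enough of them. It reached 17035 CPM at 3 wk, 14917 at 4 wk, 41731 at 5 wk and 25389 at 6 wk, from 14, 27, 51 and 39 cells, with a mean of 24768 ± 12179 CPM (SD, n = 4 libraries). The 6 cells of the 2 wk library, too few to enter the mean, stood at 11924 CPM. The 3 and 4 wk libraries were close, and the 5 wk library stood highest. Every macrophage-like cell held an Apoe UMI, also after each cell was thinned to 2000 UMIs (100%, exact 95% binomial interval 97.3% to 100%), against 11.6% (6.33% to 19.0%) of thinned T and NK cells.

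Within libraries, Apoe was 82.9, 467, 41.5 and 312 times as high in macrophage-like as in the other named hematopoietic-like cells, which are dendritic, T and NK cells, at 3, 4, 5 and 6 wk. The mean log2 ratio was 7.23 ± 1.63 (SD, n = 4 libraries), and without the 5 wk library it was 7.84. Apoe was the 1 member with at least 100 UMIs over both groups, and it was called higher, meaning at least 2-fold in every library, as were 9.98% of 3208 genes tested, while 4.93% were called lower. When hematopoietic-like cells, unnamed ones included, were instead split by whether 3 or more macrophage markers were detected, the mean log2 ratio was 4.47, and with the libraries merged without integration it was 3.83. Macrophage-like cells gave 0.0407% to 0.531% of a library's UMIs and 1.99%, 3.60%, 4.56%, 21.5% and 9.63% of its Apoe UMIs from 2 to 6 wk. Apoe was also 4.79 ± 0.70 (SD, n = 4 libraries) higher on the log2 scale in these cells than in theca-like cells and 6.78 ± 0.51 higher than in granulosa-like cells. Clu went the other way, at 9.73 to 21.2 CPM in macrophage-like cells, which is within the range of T and NK cells.

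Mesenchymal cells, the connective tissue of the ovary, also carried Apoe, and its level there was lowest at 2 wk in every group. In stromal-like cells, which make the matrix between follicles, it was 310.4, 1108, 1239.7, 1994 and 1563 CPM at 2, 3, 4, 5 and 6 wk. The 2 wk library stood apart and the 4 later ones were within 1108 to 1994 CPM. At 5 wk Apoe was 6.43 times (exact 95% counting interval 6.27 to 6.58) its level at 2 wk, and at 4 wk 3.99 times (3.89 to 4.10). It was the 1 of 4 stromal-like members with enough UMIs that was past 2-fold at 5 wk over 2 wk, against 3.75% of 11291 genes past 2-fold higher and 2.61% past 2-fold lower. Apod, with 98 UMIs under the minimum of 100, was 18.7 times as high (9.42 to 42.2). At 4 wk over 2 wk, 3 of 5 members were past 2-fold higher, Apoe, Apod and Apoa1, the last within the range of T and NK cells. Of 11209 genes, 3.06% were past 2-fold higher and 4.92% lower there. These intervals cover counting error only, and the spread between animals was not measured. Macrophage markers summed to 0.632, 0.965, 2.20, 3.19 and 2.55 CPM in stromal-like cells from 2 to 6 wk, in the same order as Apoe over the 5 libraries. Hemoglobin transcripts summed to 284 CPM in the 5 wk stromal-like cells and to at most 3.11 CPM at the other ages, and the part of either in the age difference was not tested.

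Among stromal groups the order of Apoe was Col14a1+ cells, then Cxcl12+, then the other stromal, Cd24a+ and Hoxd9+ cells. In Cxcl12+ cells, named for a chemokine gene, it was 366, 1154, 1643, 2867 and 2469 CPM from 2 to 6 wk. In Col14a1+ cells, named for a fibril-associated collagen, it was 472, 4582, 2187 and 3360 CPM from 2 to 5 wk, a mean of 2650 ± 1751 (SD, n = 4 libraries). Within the same library, Col14a1+ cells were above Cxcl12+ cells at every age from 2 to 5 wk. The means of Col14a1+ and Cxcl12+ cells (1699.9 ± 1004, n = 5) differed by less than either SD over libraries. These means cover different ages, and both SDs include the low 2 wk values that the groups share. Cd24a+ cells had 678 ± 253 and Hoxd9+ cells 622 ± 255 CPM (SD, n = 5 libraries each), which also lie within each other's spread. Tagln+ smooth muscle-like cells had 249.6, 776, 1209, 1319.9 and 1438 CPM, below the stromal-like cells of the same library at every age (mean log2 ratio −0.32 ± 0.24, SD, n = 5 libraries).

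In theca-like cells, Apoe was 399, 722, 997, 997 and 636 CPM from 2 to 6 wk, and in early theca cells 309, 695, 1033, 841 and 826 CPM. The log2 ratio of theca-like over early theca cells was 0.05 ± 0.29, smaller than its SD. Theca-like cells had 1.29 times the stromal-like level at 2 wk and 0.407 to 0.804 times at the later ages (mean log2 ratio −0.57 ± 0.64, SD, n = 5 libraries). At 5 wk over 2 wk, Apoe in theca-like cells was 2.50 times as high (2.35 to 2.66), and at 6 wk over 2 wk 1.59 times (1.48 to 1.72).

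**Figure D2:**
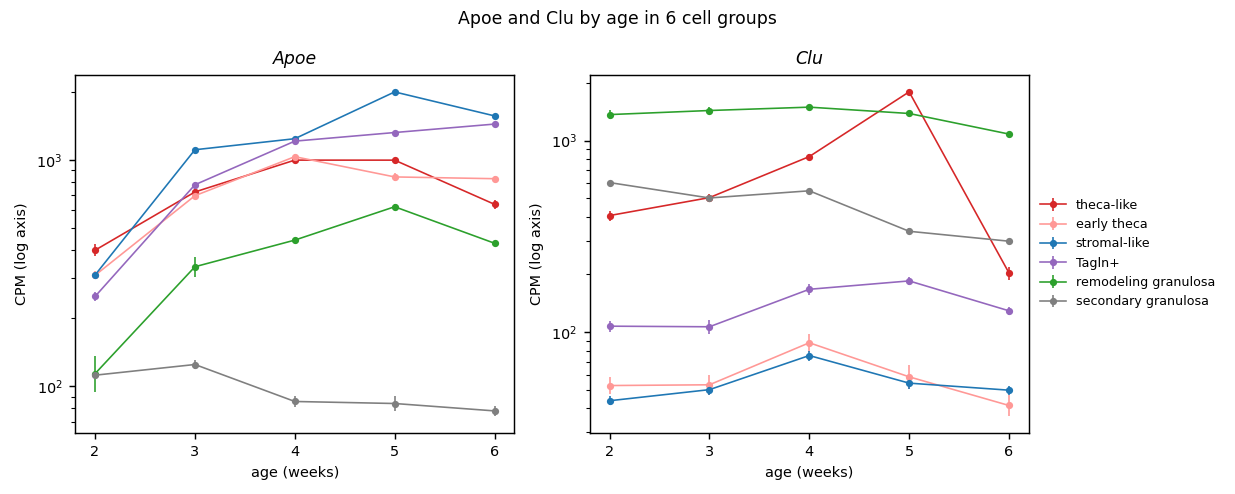
Apoe and Clu in CPM (log axis) against age in wk for theca-like, early theca, stromal-like, Tagln+ smooth muscle-like, remodeling and secondary granulosa groups. Each point is 1 library and error bars are exact 95% Poisson intervals. Apoe is lowest at 2 wk in the mesenchymal groups and in remodeling cells, and Clu peaks at 1795 CPM in the 5 wk theca-like cells.

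Surface epithelial-like cells, the single layer that covers the ovary, had 2343, 2713 and 2356 CPM of Apoe at 2, 5 and 6 wk, a mean of 2470 ± 210 (SD, n = 3 libraries). The 3 and 4 wk libraries held 49 such cells each and stood at 3935 and 3585 CPM. Unlike in stromal-like cells, the 2 wk value lay with the others. Blood endothelial-like cells had 97.9 to 332 CPM and pericyte-like cells 86.8 to 241 CPM, within the range of T and NK cells.

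In granulosa-like cells, which carry the estrogen-producing side of follicle steroid synthesis, Apoe was 0.118 to 0.437 times the stromal-like level of the same library (mean log2 ratio −2.47 ± 0.74, SD, n = 5 libraries). Of the 6 members, all with at least 100 UMIs over both groups, Apoc4, Apoa1 and Clu were called higher and Apoe and Apod lower in granulosa-like than in stromal-like cells, where 11.3% of 14786 genes were called higher and 11.5% lower. The stages differed. The remodeling group had 114, 338, 442, 621 and 429 CPM of Apoe from 2 to 6 wk, the primary group 218, 400, 527, 373 and 391, and the antral group 72.2, 121, 137, 194 and 129. Secondary cells had 78.0 to 125 CPM, mitotic granulosa cells 81.6 to 129.9 and primordial cells 85.6 to 252. After thinning, 47.6% (45.9% to 49.4%) of remodeling and 45.3% (43.3% to 47.3%) of primary cells held an Apoe UMI. The antral share was 19.2% (17.8% to 20.5%), the secondary 16.9% (15.8% to 18.0%) and the mitotic 15.3%. These overlap the interval of thinned T and NK cells, so the shares alone do not set these groups apart from free RNA. Per cell, mean Apoe UMIs over libraries were 2.06 in antral, 1.73 in secondary and 2.32 in mitotic cells. T and NK cells, which were shallower, had 0.817, so whether these groups hold only free RNA stays undecided. Unthinned shares were 83.9% in remodeling, 54.0% in antral and 16.2% in T and NK cells, with median depths of 12579, 14268.5 and 4497 UMIs.

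Apoe was higher in the remodeling than in the antral group in all 5 libraries, by 1.58, 2.79, 3.24, 3.20 and 3.33 times at 2, 3, 4, 5 and 6 wk. The mean log2 ratio was 1.45 ± 0.45 (SD, n = 5 libraries). The 2 wk library, with 96 remodeling cells, stood lowest and under 2-fold, so Apoe was not called by the rule of 2-fold in every library. At 2 and 3 wk the remodeling level, 114 and 338 CPM, was below the 162 and 380 CPM of T and NK cells in the same libraries. In CPM, the groups compared at these ages are thus not set apart from free RNA. At 4, 5 and 6 wk the remodeling group was above T and NK cells. Of 4 members with enough UMIs (Apoe, Apoc1, Apoa1 and Clu), 0 were called higher and 0 lower, against 1.87% and 0.702% of 11967 genes. Against primordial cells the remodeling log2 ratio was 1.01 ± 0.45, while the antral over primordial ratio was −0.44 ± 0.40, higher in 1 of 5 libraries. Macrophage markers summed to 0, 0, 0.823, 1.47 and 0.900 CPM in the remodeling group from 2 to 6 wk, and at 2 and 3 wk each of the 6 markers was at 0. The remodeling clusters differed among themselves over all ages, with 679, 491 and 372 CPM of Apoe in clusters of 662, 1225 and 1244 cells. Without the antral clusters that scored best for remodeling markers, the mean log2 ratio of remodeling over antral was 2.32 and that of antral over primordial −1.31. With the libraries merged without integration they were 2.90 and −1.68.

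Clu had its highest mean over libraries in the remodeling granulosa group, with 1366, 1434, 1494, 1384 and 1081 CPM from 2 to 6 wk and a mean of 1352 ± 159 (SD, n = 5 libraries). At 5 wk theca-like cells were higher, at 1795 CPM. The antral group had 672, 629, 761, 588 and 589 CPM. The remodeling and antral values did not overlap, and the remodeling group was 2.03, 2.28, 1.96, 2.35 and 1.83 times as high (mean log2 ratio 1.06 ± 0.15, SD, n = 5 libraries). The 4 and 6 wk ratios fell short of 2-fold, so Clu was not called either. Against primordial cells the remodeling level was at least 2.02 times as high in every library (log2 ratio 1.43 ± 0.33). Antral over primordial was 0.37 ± 0.38, within its SD, and its sign turned to −0.11 without the 2 antral clusters placed by profile. Of 3 members with enough UMIs there (Apoe, Apoa1 and Clu), 0 were called higher or lower, against 1.83% and 4.83% of 11338 genes.

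Before the antral stage no order of the stages held in all libraries. Primary cells had 570, 603, 859, 467 and 389 CPM, secondary cells 603, 501, 546, 336 and 298 CPM, and primordial cells 432, 407, 662, 685 and 390.4 CPM from 2 to 6 wk. The ranges of the 3 stages overlap. Within the remodeling group, 1 cluster of 662 cells had 2035 CPM and the other two 1362 and 1006 CPM. Within the antral group, the cluster named from antral markers had 464 CPM and those placed by profile had 678 and 1090 CPM. After thinning, 84.5% of remodeling, 69.1% of antral and 57.4% of secondary cells held a Clu UMI, against 4.46% of T and NK cells. Remodeling cells gave 3.54% and 5.36% of all Clu UMIs at 2 and 3 wk, and 31.8%, 24.9% and 29.1% at 4, 5 and 6 wk, when they were 750 to 1290 cells instead of 96 and 143.

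**Figure D3:**
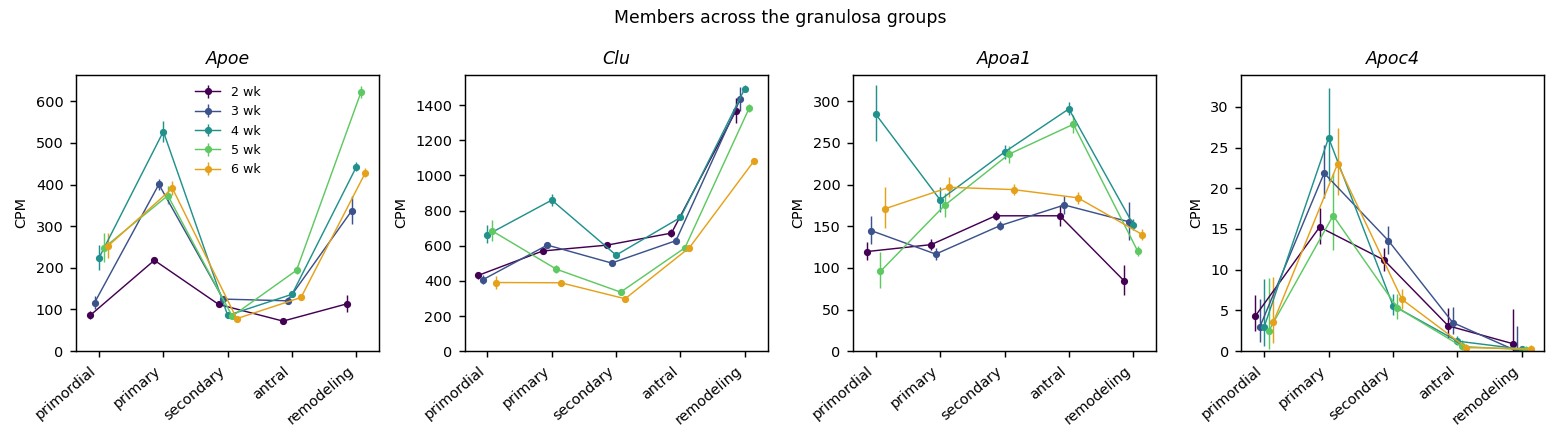
CPM of Apoe, Clu, Apoa1 and Apoc4 in the primordial, primary, secondary, antral and remodeling granulosa groups, with 1 line per age and exact 95% Poisson intervals as error bars. In each library Apoe and Clu are higher and Apoa1 lower in remodeling than in antral cells, and Apoc4 is highest in primary cells.

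In theca-like cells Clu depended on the library. It was 406, 503, 824, 1795 and 204 CPM at 2, 3, 4, 5 and 6 wk, highest at 5 wk and lowest at 6 wk. In stromal-like cells it was 43.8 to 75.5 CPM, so theca-like cells were 9.26, 10.1, 10.9, 33.1 and 4.09 times as high within libraries (mean log2 ratio 3.41 ± 1.08, SD, n = 5 libraries). Clu was called higher and Apod lower among 5 members with enough UMIs, against 2.70% and 7.34% of 12941 genes. Early theca cells, at 41.4 CPM in the lowest library and 58.4 CPM at 5 wk, were near the stromal level (log2 ratio over stromal-like 0.08 ± 0.21).

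At 5 wk over 2 wk Clu was 4.42 times as high in theca-like cells (exact 95% counting interval 4.16 to 4.70), and at 6 wk it was 0.502 times the 2 wk level (0.455 to 0.553). Apoe, Apoc1 and Clu, the 3 members with enough UMIs, were past 2-fold higher at 5 wk over 2 wk, against 8.51% of 9047 genes past 2-fold higher and 6.70% past 2-fold lower. Theca-like cells gave 37.3% of the Clu UMIs of the 5 wk library and 1.30% to 6.02% at the other ages, with 600 of 1486 theca-like cells at 5 wk. Most of the Clu lay in 1 of the 2 theca-like clusters, which had 653, 779, 1189, 2099 and 336 CPM, while the other, which also scored for early theca markers, had 242, 259, 322, 398 and 127 CPM. The theca markers Bpifb4, Mgarp, Cyp11a1, Cyp17a1, Plin1 and Star, several of which act in steroid synthesis, summed to 2485, 854, 2095, 10097 and 1268 CPM and were also highest at 5 wk. Granulosa markers summed to 826 CPM in the 5 wk theca-like cells and 179 to 255 CPM at the other ages, against 4685 to 7206 CPM in granulosa-like cells. In the 5 wk library Clu was 659 CPM in granulosa-like cells, 1384 CPM in their remodeling group and 1795 CPM in theca-like cells. The part of granulosa transcripts in the theca-like level was not tested. Hemoglobin transcripts summed to 543 CPM in the 5 wk theca-like cells and at most 1.04 CPM at the other ages, and their part in these differences was not tested.

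Other cell types with Clu were rete ovarii-like cells, the epithelial tubules beside the ovary, at 974 CPM over 91 cells, and surface epithelial-like cells at 514 ± 69.9 CPM (SD, n = 3 libraries). Blood endothelial-like cells had 284, 391, 722, 536 and 469 CPM, the lowest at 2 wk. Tagln+ cells had 107 to 185 CPM and were above stromal-like cells in all 5 libraries (log2 ratio 1.34 ± 0.27, SD, n = 5 libraries).

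**Figure D4:**
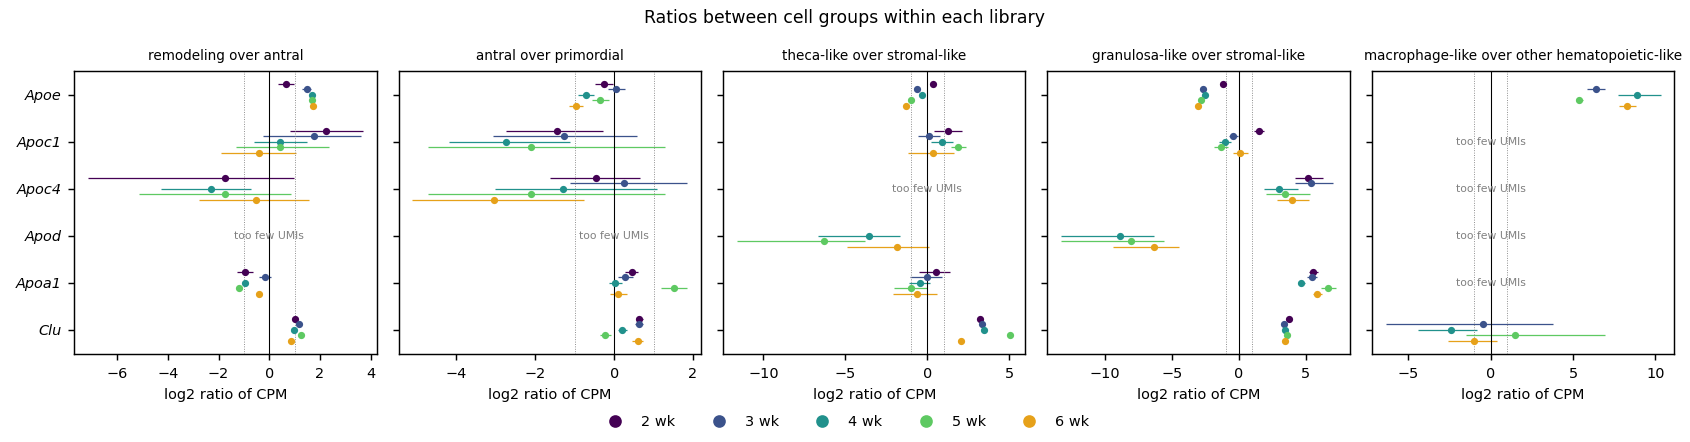
Log2 ratio of CPM in each library for the members in 5 comparisons of cell groups, with exact 95% counting intervals. Dotted lines mark 2-fold in either direction, and members with too few UMIs are marked in words. Clu in theca-like over stromal-like cells and Apoe in macrophage-like over other hematopoietic-like cells lie beyond the line in every library.

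Apoa1 marked granulosa-like cells of all stages. It was 25.2 to 103 times as high in granulosa-like as in stromal-like cells (mean log2 ratio 5.64 ± 0.73, SD, n = 5 libraries). Stromal-like cells had 1.93 to 8.96 CPM, theca-like cells 0.971 to 6.60 and macrophage-like cells 0 to 7.03, all within the range of T and NK cells. Antral cells had 162, 175, 291, 272 and 184 CPM from 2 to 6 wk, secondary cells 162, 151, 239, 236 and 194, primary cells 128, 116, 182, 175 and 197 and primordial cells 120, 145, 284, 95.7 and 171 CPM. The means of these stages, 160 to 217 CPM, differed by less than the SD of the antral group, 59.8 CPM (n = 5 libraries).

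The remodeling group had the lowest mean of Apoa1 among granulosa groups, with 84.3, 155, 152, 120 and 140 CPM. It was below the antral group in all 5 libraries, at 0.519, 0.886, 0.523, 0.441 and 0.761 times (mean log2 ratio −0.73 ± 0.42, SD, n = 5 libraries), which was not called because 4 ratios stayed above 0.5. Thinned shares of cells with an Apoa1 UMI were 25.8% in antral, 16.4% in remodeling and 0.893% in T and NK cells. The antral over primordial log2 ratio was 0.47 ± 0.60, within its SD, with 1.51 at 5 wk and 0.03 to 0.44 in the other libraries. The clusters behind these means spread widely, from 308 CPM in the cluster named from antral markers to 63.8 CPM in an antral cluster placed by profile, and from 215 to 50.2 CPM among remodeling clusters.

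The neighbours of Apoa1 were also granulosa transcripts. Apoa4, which encodes another protein of intestinal and high-density lipoprotein, and Apoc3, an inhibitor of lipoprotein lipase, lie within 14.88 kb with it. Both were high in granulosa-like over stromal-like cells, with mean log2 ratios of 5.86 ± 0.71 and 5.79 ± 1.09 (SD, n = 5 libraries). They differed from Apoa1 between stages, since Apoa4 was 3.72 ± 0.68 higher on the log2 scale in antral than in primordial cells. In remodeling over antral cells Apoa4 was −1.23 ± 0.58 and Apoc3 −2.06 ± 0.39, lower in all 5 libraries. At 4 wk over 2 wk in granulosa-like cells, Apoa4 was 5.42 times as high (5.20 to 5.66) and Apoa1 1.55 times (1.51 to 1.60).

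**Figure D5:**
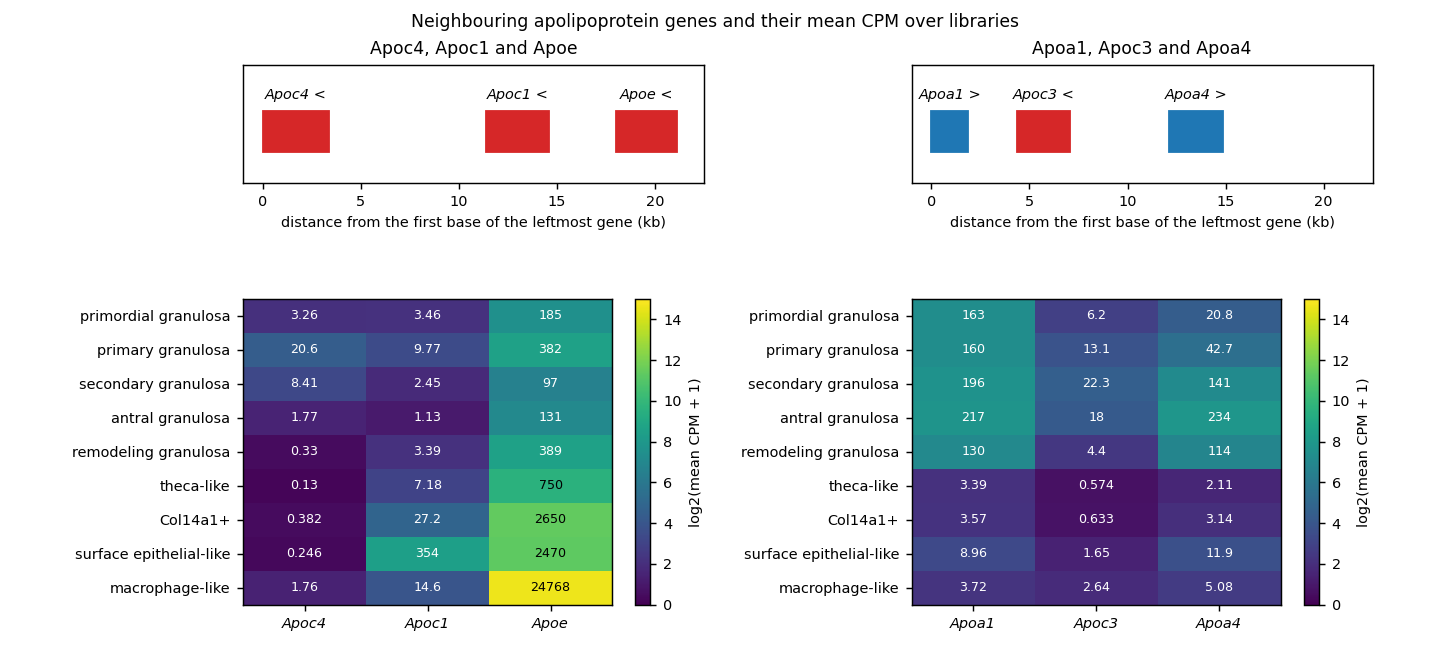
Map of Apoc4, Apoc1 and Apoe and of Apoa1, Apoc3 and Apoa4, in kb from the leftmost gene, beside a heat map of their mean CPM in 9 groups of cells. Apoa1, Apoc3 and Apoa4 share the granulosa groups, whereas Apoe, Apoc1 and Apoc4 are highest in macrophage-like, surface epithelial-like and primary granulosa cells.

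Apoc4 was a transcript of early granulosa stages. Primary cells had 15.2, 21.9, 26.2, 16.6 and 23.0 CPM from 2 to 6 wk, a mean of 20.6 ± 4.56 (SD, n = 5 libraries). Secondary cells had 11.2, 13.6, 5.60, 5.32 and 6.36 CPM, primordial cells 2.49 to 4.31 and antral cells 0.429 to 3.51 CPM. Primary values did not overlap those of any other granulosa group. The 3 secondary clusters were all placed by profile match, and in 2 of them, of 2105 and 825 cells, primary was the best marker list, so the contrast of primary with secondary cells rests on that match. In remodeling cells 11 of 3131 cells held an Apoc4 UMI, and the level was 0 to 0.926 CPM. Stromal-like cells had 0.265 to 0.427 CPM, so granulosa-like cells were 7.86 to 42.4 times as high (mean log2 ratio 4.18 ± 1.06, SD, n = 5 libraries). In primary cells 19.8% held an Apoc4 UMI, 3.47% after thinning, and none of the T and NK cells did. Macrophage-like cells had 4 Apoc4 UMIs at 5 wk (7.03 CPM) and 0 at the other ages.

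Over all granulosa-like cells Apoc4 was lower at 4 wk than at 2 wk, at 0.303 times (exact 95% counting interval 0.260 to 0.352). Within stages the order was not the same, since primary cells were 1.72 times as high at 4 wk (1.32 to 2.23) and secondary cells lower, with an interval of 0.379 to 0.653 times. Primary cells were 753 of 3082 granulosa-like cells at 2 wk and 370 of 5201 at 4 wk. Apoc1 also stood at 0.303 times (0.249 to 0.368), with 1.10 times (0.760 to 1.57) in primary cells. Apoc1 and Apoc4 were the 2 of 5 members past 2-fold at 4 wk over 2 wk in granulosa-like cells, both lower, against 10.3% of 12635 genes past 2-fold lower and 6.20% past 2-fold higher. Apoe, Apoa1 and Clu were 1.58, 1.55 and 1.41 times as high at 4 wk. Within stages Clu was 1.53 times as high in primordial, 1.51 in primary, 1.13 in antral and 1.09 in remodeling cells, and 0.906 times in secondary cells. Remodeling cells, where Clu was high, were 96 of 3082 granulosa-like cells at 2 wk and 1290 of 5201 at 4 wk. The part of this change in mix in the Clu ratio was not tested.

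Apoe itself was 3.88 times (3.25 to 4.68) as high at 4 wk as at 2 wk in remodeling cells. The same ratio was 2.61 in primordial, 2.42 in primary and 1.89 in antral cells, and 0.766 (0.712 to 0.822) in secondary cells. Of all genes, 7.48% were past 2-fold higher in remodeling, 1.38% in primordial and 2.86% in primary cells. Past 2-fold lower were 10.3%, 6.76% and 4.19%. Thinned secondary and antral shares overlapped the interval of T and NK cells, and at 2 wk both groups were below these cells in Apoe. T and NK cells had 162 CPM of Apoe at 2 wk and 43.0 CPM at 4 wk, from 22 and 4 UMIs. Remodeling cells, at 114 CPM, and primordial cells, at 85.6 CPM, were also below T and NK cells at 2 wk. The secondary, antral, remodeling and primordial ratios are therefore not read as changes of those stages.

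Apoc1 was highest in surface epithelial-like cells, with 224, 496 and 341 CPM at 2, 5 and 6 wk, a mean of 354 ± 137 (SD, n = 3 libraries). The 49 cells each of 3 and 4 wk stood at 160 and 321 CPM. Against stromal-like cells the ratio was 93.7, 131 and 232 (mean log2 ratio 7.15 ± 0.66, SD, n = 3 libraries) at 2, 5 and 6 wk. Apoc1, Apoa1 and Clu were called higher and Apod lower of 5 members with enough UMIs, against 9.10% and 7.42% of 12247 genes. The Apoa1 levels behind its call spanned 6.64 to 13.3 CPM, under the highest T and NK value of 21.5 CPM. This call therefore does not separate Apoa1 in the surface layer from free RNA. The call of Apod rests on 0 UMIs in each library, which allow 2.21, 3.48 and 5.69 CPM at 2, 5 and 6 wk, against stromal-like levels of 0.316, 5.91 and 2.23 CPM, so a 2-fold lower level was not detectable at this depth. Of these cells, 60.8% held an Apoc1 UMI and 37.3% (31.9% to 42.9%) after thinning, and they gave 12.4% to 52.5% of a library's Apoc1 UMIs with 0.302% to 1.08% of all its UMIs.

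Lower levels of Apoc1 were found in several other groups. Col14a1+ stromal cells had a mean of 27.2 ± 17.3 CPM (SD, n = 4 libraries), with 50.8 CPM at 3 wk. Primary granulosa cells had 11.3, 9.73, 12.5, 7.04 and 8.28 CPM from 2 to 6 wk, against 0.575 to 2.15 CPM in antral cells. Theca-like cells had 5.83, 6.26, 7.97, 14.0 and 1.89 CPM, above early theca cells in all 5 libraries (log2 ratio 2.53 ± 0.56, SD, n = 5 libraries), and at 5 wk over 2 wk 2.40 times as high (1.44 to 4.28, from 187 and 16 UMIs). As for Clu, the theca-like cluster without early theca markers held the higher level, at 14.3 CPM against 1.77 CPM. Macrophage-like cells, in which ApoC1 is known to be made with ApoE, had 0, 5.29, 40.4 and 12.8 CPM at 3, 4, 5 and 6 wk, from 0, 1, 23 and 5 UMIs, and at 3 and 4 wk the counts were too low to place them.

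Apod was the rarest member, with 465 UMIs in all, of which 292 lay in stromal-like, 82 in mitotic mesenchymal, 21 in early theca and 17 in pericyte-like cells. In Col14a1+ cells it was 1.87, 17.4, 16.1 and 29.1 CPM from 2 to 5 wk, a mean of 16.1 ± 11.1 (SD, n = 4 libraries), and in Cd24a+ cells 0.260, 2.77, 12.5, 7.15 and 4.93 CPM from 2 to 6 wk. In stromal-like cells as a whole it was 0.316, 2.47, 6.54, 5.91 and 2.23 CPM. The 2 wk library was lowest in each of these groups, and at 4 wk over 2 wk the stromal-like level was 20.7 times as high, from 92 and 9 UMIs. After thinning, 2.29% of Col14a1+ and 1.13% of Cd24a+ cells held an Apod UMI. No UMI was found in 3306 antral, 2424 primary, 4373 secondary, 821 primordial or 137 macrophage-like cells, and 1 was found in 3131 remodeling cells. The 0 UMIs of antral cells allow up to 0.0595 CPM, and those of macrophage-like cells up to 2.30 CPM, which does not exclude the stromal level. In theca-like cells Apod was 0, 0, 0.550, 0.0747 and 0.630 CPM, from 0 to 2 UMIs per library, so its call as lower than in stromal-like cells rests on libraries at 0 UMIs at 2 and 3 wk, which allow 1.09 and 0.783 CPM, and at 2 wk this lies above the stromal-like level.

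The members work through receptors, enzymes and regulators, and 4 lists of these, of 16 other apolipoproteins, 12 lipoprotein receptors, 14 proteins of lipid loading and 11 nuclear receptors and regulators, were read against the same comparisons. In theca-like over stromal-like cells, 5 of 10 lipid-loading genes with enough UMIs were called higher, 1 lower, against 2.70% and 7.34% of all genes, and the median log2 ratio was 1.06, against 0.01 over all genes tested. Those higher were Soat1, which esterifies cholesterol (2.64 ± 0.53, SD, n = 5 libraries), Nceh1, a cholesterol ester hydrolase (3.02 ± 1.06), Abca1, which exports cholesterol to apolipoproteins (1.80 ± 0.38), the endothelial lipase gene Lipg (2.21 ± 0.34) and Abca7 (1.54 ± 0.28). Lpl, the lipoprotein lipase gene, was lower (−4.09 ± 0.60). Of 9 receptors, Scarb1, the receptor for high-density lipoprotein, was called higher (2.69 ± 0.53) and Lrp1, a receptor of ApoE, lower (−1.47 ± 0.18). Of 10 regulators, Nr5a1 and Ppara were called higher and Mylip and Pparg lower, and of 5 other apolipoproteins Apof was called higher.

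In remodeling over antral cells 2 genes of the 4 lists were called, both lower, where 1.87% of all genes were called higher and 0.702% lower. Of 2 other apolipoproteins with enough UMIs, Apoc3 was called lower and none was called higher. No gene of 10 receptors or of 8 lipid-loading genes was called in either direction, and of 10 regulators Nr5a2, a nuclear receptor of granulosa cells, was called lower (−1.16 ± 0.12, SD, n = 5 libraries). The median log2 ratios of the 4 lists were −1.65, 0.17, 0.16 and 0.02, against 0.08 over all genes. In antral over primordial cells Cd36, a scavenger receptor, was called higher (3.17 ± 0.77) as the 1 of 10 receptors, where 1.83% of all genes were called higher and 4.83% lower, and Pparg (2.20 ± 0.69) and Nr5a2 (1.82 ± 0.21) as 2 of 9 regulators. Nceh1 and Abca7 were called higher and Pltp lower of 8 lipid-loading genes, and Apoa4 higher of 2 other apolipoproteins.

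Macrophage-like cells had 3 of 4 receptors called higher over the other hematopoietic-like cells, Trem2, Cd36 and Lrp1, and 4 of 7 lipid-loading genes, Abca1, Pltp, Lipa and Nceh1, with none lower, against 9.98% of all genes called higher and 4.93% lower. Mylip was the 1 regulator with enough UMIs and was called higher, and 0 other apolipoproteins had enough UMIs. Trem2, a receptor of myeloid cells that binds lipids and ApoE, reached 401 ± 246 CPM and Abca1 506 ± 158 CPM in macrophage-like cells (SD, n = 4 libraries).

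The list genes with the highest levels lay in different cells. Bsg, which encodes basigin, was highest in surface epithelial-like cells at 1836 ± 216 CPM, as was Soat1 at 918 ± 174 CPM (SD, n = 3 libraries each). Lrp1 and Lpl were highest in Col14a1+ stromal cells, at 330 ± 22.2 and 343 ± 61.0 CPM (SD, n = 4 libraries each), and Scarb1 in theca-like cells at 332 ± 111 CPM (SD, n = 5 libraries). Nr5a2 and Apoa4 were highest in antral cells, at 641 ± 85.9 and 234 ± 79.9 CPM (SD, n = 5 libraries each). The mean of Apoa1 was also highest in this group, by less than its SD over the primordial, primary and secondary means. Nr5a2 was also among the markers used to name granulosa-like clusters.

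Between ages, without a test, granulosa-like cells at 4 wk over 2 wk had 2 of 3 other apolipoproteins past 2-fold higher (Apoa4 and Apof), against 6.20% of all genes higher and 10.3% lower. Lrp8, Sort1 and Cd36 were higher and Sorl1 lower of 10 receptors, and Nceh1 was higher and Lipg, Angptl4 and Soat1 lower of 10 lipid-loading genes. Of 10 regulators, Nr1h3, the liver X receptor known to drive Apoe and Abca1, was 4.89 times as high (2.87 to 8.87, from 120 UMIs over both ages) and Pparg 3.77 times, while Srebf1 and Ppara were past 2-fold lower. In theca-like cells at 5 wk over 2 wk the receptor Cd36 was past 2-fold higher, as were 8.51% of all genes, with 6.70% lower. Abca1 (3.66 times) and Nceh1 (9.03 times) were higher and Pltp (0.125 times) lower of 8 lipid-loading genes, and 0 of 6 regulators were past 2-fold.

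Each member was also set against all genes with at least 500 UMIs over 22 groups of cells, by Pearson's correlation of log2(CPM + 1), as a description without a test. The groups share libraries and depth. The closest genes were Npc2 (0.91), Guca1a (0.86) and Tfe3 (0.85) for Apoe, all highest in macrophage-like cells, and Angptl7 (0.87), Oplah (0.82) and Myrf (0.79) for Apoc1, all highest in surface epithelial-like cells. For Apoc4 they were B230209E15Rik (0.91), Snap25 (0.90) and Gtf2a1 (0.90), all highest in primary granulosa cells. For Apoa1 they were Nr5a2 (0.98), Ivns1abp (0.96) and Derl3 (0.96), highest in antral cells, with its neighbours Apoc3 at 0.92 and Apoa4 at 0.88. For Clu they were Nr0b1 (0.91), Sh2d4a (0.89) and Nudt12 (0.89), which were highest in rete ovarii-like or surface epithelial-like cells. Apoe correlated with its neighbours Apoc1 at 0.50 and Apoc4 at −0.21, and with Apoa1 at −0.63. Apod had fewer than 500 UMIs and was not set against other genes.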

How the data were processed

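Single-cell RNA-seq libraries of mouse ovaries, 1 for each of 5 ages, were analysed from their UMI count matrices. The counts deposited by the authors were made with Cell Ranger against mm10, and the file headers give version 3.1.0 for the 2 to 4 wk libraries and 6.0.1 for the 5 and 6 wk libraries, so that age and software version overlap. The number of animals per library was not given in the sources used here.

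Raw UMI counts of all 48163 barcodes were used without a further filter, and doublets were called with Scrublet (scanpy 1.11.5) and kept. Libraries were integrated and clustered in Seurat 5.3.0 (R 4.3.3) on 2000 variable genes, of which 5 of the 6 members were part, and 30 principal components at resolution 1.0, first over all cells and then within cell classes. A first cluster took the list with the highest mean z score among those with at least 3 markers detected. In naming clusters, a marker counted as detected where at least 10% of a cluster's cells held it. Its CPM also had to be at least 1.5 times the median over clusters. In the second clustering a cluster was named where at least 3 markers of a list were detected, with a mean z score of at least 0.5 and a lead of at least 0.25 over the next list. Mesenchymal clusters without such a name formed the other stromal group, which was 2591 of the 10420 stromal-like cells. Granulosa clusters without such a name took the study cluster whose profile they matched best, at a correlation of at least 0.7. Members were left out of markers and profiles, and clusters stayed unnamed, whatever their marker scores, where 50% or more of the cells were doublets, cells were few, UMIs were low or markers of another cell type outnumbered their own among the top genes.

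UMIs were summed per group and library and scaled to CPM by the total of that group and library. Levels have exact 95% Poisson intervals, ratios exact intervals given the sum of both counts, and shares exact Clopper-Pearson intervals, before and after thinning each cell to 2000 UMIs. All of these cover counting error only, and a count of 0 allows up to 3 counts. Groups entered a mean with at least 50 cells in a library, or 10 for macrophages. Cells are not replicates, so means and SDs are over libraries and no p-value was computed. A gene with at least 100 UMIs over both groups was called where it was at least 2-fold higher, or at most 0.5-fold, in every library. For a pair of ages, which have 1 library each, the same fold was applied to 1 ratio.

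The members and the lists of related genes were chosen with earlier results of these data known. Text named the members, the 3 genes most like each member with at least 500 UMIs, and from each list the genes past 2-fold or with the highest level. Alternatives changed the cells kept, the scaling, the clustering and the libraries included. The authors' own cluster tables were not used as results. The values of 1 gene of the receptor list are not reported here. Promoter windows came from RefSeq, which matched Apoe, Apoc4, Apoa1 and Apod, and Apoc1 and Clu were not used there. Scripts were tested on simulated data, with Python 3.11.15, numpy 2.4.6, scipy 1.17.1 and pandas 2.3.3.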

Additional observations from a re-analysis of the deposited data

Results flagged for a closer look

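In groups of 5 libraries, a value was singled out where its gap to the nearest other library took more than 0.71 of the group's range, which chance gives in about 1 in 20 groups. Apoe in remodeling over antral granulosa cells had a log2 ratio of 0.66 at 2 wk, against 1.48 to 1.73 at the other ages, and the gap was 0.765 of the range. The 2 wk value rests on 96 remodeling cells. Apoa1 in antral over primordial cells had a log2 ratio of 1.51 at 5 wk, against 0.03 to 0.44 at the other ages (0.722 of the range), with 82 primordial cells in that library. Clu in remodeling cells stood at a log2 CPM of 10.08 at 6 wk, below 10.42 to 10.54 at the other ages (0.724 of the range).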

How the results depend on the processing

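No direction turned where the mean log2 ratio exceeded its SD or, between ages, the counting interval excluded no change. Antral over primordial Clu, within its SD, turned from 0.37 to −0.11 without the antral clusters placed by profile. The 105 values that leave out 1 library each moved by less than the spread between libraries. None could have passed that limit, because leaving 1 value out of a mean shifts it by less than their SD. Without the 2 wk library the log2 level of Apod in Col14a1+ cells was 4.33, and its theca-like over stromal-like log2 ratio ranged from −4.94 without the 6 wk to −2.70 without the 5 wk library. Removing called doublets moved none of 31 values beyond their limit. That limit was the spread between libraries or, for ratios between ages, which have 1 library each, the counting interval. The values that did move, for which the cause was not tested, are log2 ratios or log2 CPM unless named otherwise. For granulosa-like cells at 4 wk over 2 wk, Apoe was 0.72 without mitochondrial and ribosomal UMIs, 0.80 with median-ratio scaling, 0.90 as the mean of single-cell CPM, 0.81 with members left out of the clustering and 0.78 at resolution 0.6. In the same comparison Clu was 0.56, 0.64, 0.58, 0.59 and 0.55 under these settings and 0.56 when cells were kept only from 1000 genes up and with mitochondrial UMIs below 10%. Apoa1 was 0.70, 0.78 and 0.60 under the first 3, and Apoc4 −1.36 as a mean of single cells. For theca-like cells at 5 wk over 2 wk, the filter on genes and mitochondrial UMIs gave Apoe 1.46 and Clu 1.89, and leaving out mitochondrial and ribosomal UMIs gave 1.22 and 2.05. Clu there was 1.94 as a mean of single cells, 1.82 with libraries merged and 1.68 without the cluster that also scored for early theca, which gave Apoa1 −1.32 in theca-like over stromal-like cells. Levels became 7.76 for Apoc1 in surface epithelial-like cells under the cell filter, and 4.91 for Apoc4 in primary, 8.34 for Apoa1 in antral and 10.94 for Clu in remodeling cells without mitochondrial and ribosomal UMIs. Merging libraries without integration gave remodeling over antral Apoe 2.90 and Clu 1.62, antral over primordial Apoe −1.68, macrophage-like over other hematopoietic-like Apoe 3.83 and Clu −2.84, Apoc4 in primary cells 3.77 and Clu in remodeling cells 10.10. Macrophages split by markers gave Apoe 4.47. Without the antral clusters placed by profile, an alternative added after seeing the data like that of the theca cluster, remodeling over antral was 2.32 for Apoe and 1.54 for Clu, and antral over primordial −1.31 and −0.11. At resolution 0.6 antral over primordial Clu was 0.77. Mean shares after thinning were 39.2% for Apoc1 in surface epithelial-like, 3.84% for Apoc4 in primary, 24.2% for Apoa1 in antral and 84.4% for Clu in remodeling cells.

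Counts of genes past 2-fold followed the minimum of UMIs. With at least 20 UMIs, 129 genes were lower in remodeling over antral cells, 566 higher and 437 lower in macrophage-like cells, 1268 higher in granulosa-like cells at 4 wk over 2 wk, and 1308 higher and 1309 lower in theca-like cells at 5 wk over 2 wk. With at least 500 UMIs, the higher and lower counts were 132 and 53 for remodeling over antral, 132 and 282 for antral over primordial, 95 and 24 for macrophage-like, 455 and 833 for granulosa-like and 344 and 165 for theca-like cells. No paired analysis was possible because, between ages, each age has 1 library and the labels give no replicate numbers, while ratios between cell groups were already taken within libraries. Depth limits Apod, Apoc4 and Apoc1, which had 465, 2069 and 2868 UMIs in all.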

Other observations

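Unnamed clusters also carried the members. Hematopoietic-like clusters without a name had 3121 to 11195 CPM of Apoe over all ages, the highest in a cluster of 86 cells with a median of 979 UMIs, and Clu in them ranged from 15.1 to 344 CPM. In the cluster of 86 cells B was the best marker list, and its markers Ms4a1, Cd79a and Cd79b were among the top genes. Still, 0 of the B markers passed the rule for a detected marker, which needs a UMI in at least 10% of cells. In another cluster of 30 cells neutrophil was the best list, with 4 detected. The unnamed hematopoietic-like clusters lay between the macrophage-like and the other named hematopoietic-like cells in Apoe. They were not part of the free RNA level taken from T and NK cells.

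An unnamed mesenchymal cluster of 74 cells had 2837 CPM of Apoe and 23.0 CPM of Apod (11 UMIs), above the Apod level of Col14a1+ cells over all libraries (13.4 CPM), with an exact 95% interval of 11.5 to 41.2 CPM that includes it. An unnamed granulosa cluster of 820 cells, led by Inhba, Cyp11a1 and Cyp19a1, had 746 CPM of Clu and 37.9 CPM of Apoe.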
